A study of Mus musculus with 4 samples.

Results

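Interferon gamma (Ifng), the receptor chains that read it and its type I relatives, the chains of the IL-12 receptor, the factor T-bet and the feedback inhibitor SOCS1 were followed as 9 of the 31053 genes counted in these libraries. The 9 genes, Ifng, Ifngr1, Ifngr2, Ifnar1, Ifnar2, Il12rb1, Il12rb2, Tbx21 and Socs1, were taken by name, and each was measured in cells gated by marker genes. The libraries were droplet 3′ single-cell RNA libraries of CD45+ DAPI- cells from 2 control skins and 2 skin tumors. The control skins came from uninoculated C57BL/6 mice. The skin tumors had grown from the 2323 cell line, injected into the flank of C57BL/6 mice of 8 to 10 weeks and collected about 2 weeks later. The 2323 line was derived from a genetically engineered mouse carrying K14rtTA and tetOCre, in which the keratin 14 promoter directs the tetracycline-controlled Cre to keratinocytes, so the engineered alleles belong to the injected cells and the sorted host cells do not carry them. Both tumors come from 1 line, and all 4 tissues were digested with collagenase IV for 2 h at 37 °C.

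Interferon gamma is made mainly by NK cells and T cells and acts on almost every cell through a receptor of 2 IFNGR1 and 2 IFNGR2 chains, which signals through the kinases JAK1 and JAK2. Type I interferons use the pair IFNAR1 and IFNAR2, with JAK1 and TYK2. IL-12 from dendritic cells and macrophages binds IL12RB1 with IL12RB2, activates STAT4 and, with the T-box factor T-bet (Tbx21), drives Ifng transcription, while SOCS1 is induced by interferon signalling and blocks the kinases.

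The files held 3499, 3862, 5176 and 2258 cell barcodes in control skin 1, control skin 2, skin tumor 1 and skin tumor 2, with 34893543 to 73904272 UMIs (unique molecular identifiers, one per captured RNA molecule) a library. Filtering left 12848 cells with medians of 10610 to 13362 UMIs, and 23 barcodes occurred in more than 1 library. A gate is a rule on UMIs of marker genes, for example at least 2 CD3 UMIs with Cd8a or Cd8b1 and without Cd4 and Foxp3 for CD8 T. Of 54 pairs of a gate and a marker the gate did not use, 53 had that gate among the 3 highest. The 15 gates left 3501 cells ungated, set 1257 aside for markers of more than 1 lineage, most of them deep (medians of 25266 to 28463 UMIs), and found 221 with at least 10 UMIs of collagen or keratin genes. Gates with at least 10 cells in every library numbered 10 and were tested. Langerhans cells (LC), dermal gamma delta T cells, ILC2, cDC1 and mature DC fell short in at least 1 library and are described only. The 12 cells in the gate of dendritic epidermal T cells (DETC) of skin tumor 1 stood apart: Trdv4, a DETC receptor segment, was found in 16.7% of them against 92.9% to 95.9% in the other libraries, and NK genes summed to 9.71 per 10000 UMIs against 0.089 to 0.295. In that library the gate is read as its marker rule only.

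Coordinates are GRCm38, the mm10 build that the libraries were mapped to. Ifng (ENSMUSG00000055170) lies at chr10:118441046-118445892, Ifngr1 at chr10:19591949-19610229, Tbx21 at chr11:97098071-97115331, Il12rb1 at chr8:70808449-70821424 and Il12rb2 at chr6:67291318-67376188. Ifnar2, Ifnar1 and Ifngr2 lie on the plus strand of chromosome 16 within 192.841 kilobases, chr16:91372783-91565623, with the IL-10 receptor gene Il10rb between them. Socs1 lies elsewhere on that chromosome, at chr16:10782240-10785536. RefSeq promoters of GRCm38.p6 matched 8 of the 9 genes, all but Il12rb1. The 250 bases before each start were searched on both strands for TTCNNNGAA, the GAS motif of genes that answer to interferon gamma, and for GAAA, any 2 bases and GAAA again, the core of the ISRE motif of genes that answer to type I interferon. The GAS letters were found before Ifng, Ifnar2 and Il12rb2, as in 7.02% of 32851 promoters, and the ISRE core was found before Socs1, as in 2.98%. The sequences before Ifng, the cytokine itself, before Ifnar2, the receptor chain with the clearest difference between tumor and control, and before Socs1, which differed between lymphoid and myeloid cells, are shown 5′ to 3′ on the strand of the gene, with the matches in capitals. Ifng is chr10:118440796-118441045, plus strand, Ifnar2 is chr16:91372533-91372782, plus strand, and Socs1 is chr16:10785537-10785786, minus strand.
Ifng promoter: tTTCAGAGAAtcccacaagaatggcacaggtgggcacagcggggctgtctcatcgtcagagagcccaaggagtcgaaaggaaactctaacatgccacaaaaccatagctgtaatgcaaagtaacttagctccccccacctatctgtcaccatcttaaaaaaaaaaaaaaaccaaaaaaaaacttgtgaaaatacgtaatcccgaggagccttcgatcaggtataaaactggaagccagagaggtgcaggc
Ifnar2 promoter: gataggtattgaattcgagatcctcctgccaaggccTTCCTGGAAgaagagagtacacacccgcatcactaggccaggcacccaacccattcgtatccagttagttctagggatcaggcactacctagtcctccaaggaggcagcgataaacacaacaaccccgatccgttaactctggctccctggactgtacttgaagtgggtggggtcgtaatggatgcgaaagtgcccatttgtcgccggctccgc
Socs1 promoter: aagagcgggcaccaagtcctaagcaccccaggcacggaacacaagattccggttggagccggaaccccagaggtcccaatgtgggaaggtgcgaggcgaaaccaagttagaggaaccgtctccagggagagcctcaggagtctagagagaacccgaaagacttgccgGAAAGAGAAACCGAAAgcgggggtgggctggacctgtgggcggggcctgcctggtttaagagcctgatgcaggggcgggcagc
The capitals before Socs1 are 2 overlapping ISRE core matches, whose first bases lie 83 and 77 bases before the start. A match is a run of letters, not a binding site.

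Among the gates, NK cells, CD8 T cells and CD4 T cells without Foxp3 had the highest mean levels of Ifng in both groups, while a large part of the Ifng UMIs lay in cells outside the gates. In NK cells it stood at 1.66 UMIs per 10000 UMIs in control skin 1, 0.985 in control skin 2, 2.93 in skin tumor 1 and 3.82 in skin tumor 2. Both tumor values lay above both control values, and the exact Poisson 95% intervals of the tumors (2.63 to 3.26 and 3.33 to 4.37) did not touch those of the controls (1.33 to 2.06 and 0.690 to 1.36). In CD4 T cells the values were 0.787 and 0.463 in control skin and 1.99 and 2.65 in tumors, again without overlap. In CD8 T cells they were 2.06 and 0.755 in control skin and 2.09 and 1.75 in tumors, so that control skin 1 reached the tumor level and the groups overlapped. These intervals and the floors below cover counting error only.

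**Figure D1:**
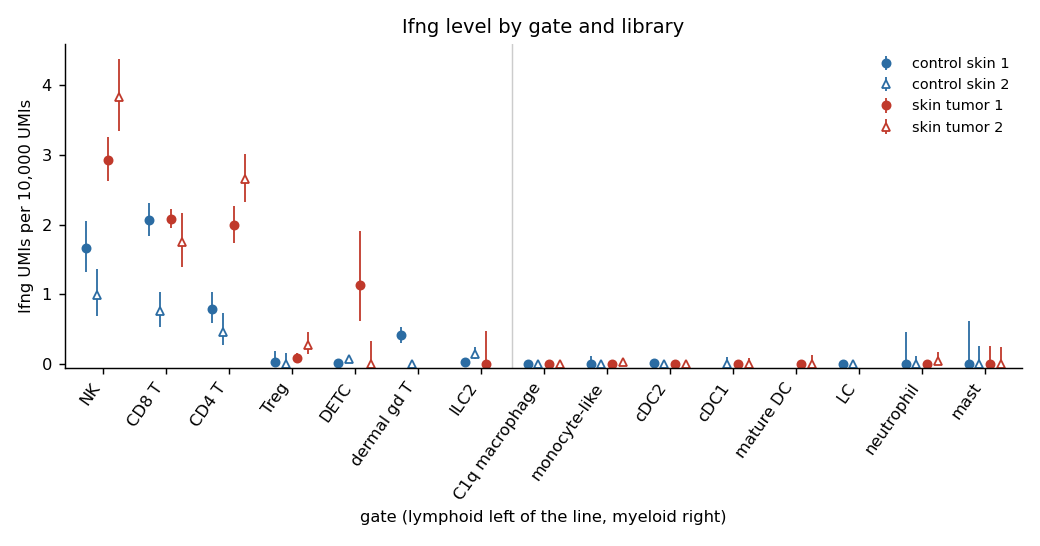
Ifng in UMIs per 10000 UMIs of a gate (y axis) by gate (x axis), 1 point for each library with at least 10 cells in the gate, circles for replicate 1 and triangles for replicate 2, blue for control skin and red for skin tumor, and bars for exact Poisson 95% intervals. NK, CD8 T and CD4 T have the highest mean levels in both groups, up to 3.82 in NK of skin tumor 2. The DETC gate of skin tumor 1 stands at 1.13, above several control points of these gates, such as 0.985 in NK of control skin 2. The myeloid gates right of the line lie at 0.050 or below.

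Ifng rose in tumors in NK cells by 1.30 on the log2 scale (SE 0.27, adjusted p = 0.0176) and in CD4 T cells by 1.73 (SE 0.31, adjusted p = 0.0155), in edgeR's quasi-likelihood test on UMIs summed per library with Benjamini-Hochberg adjustment over all genes of the gate (n = 2 libraries a group). In CD8 T cells the difference was 0.26 (SE 0.38, adjusted p = 0.724) in the same edgeR test. Over all 9 genes, 66 tests in 10 gates gave 2 higher, both of Ifng, and 4 lower, where 4.09% of 70444 tests of all genes were called (2.02% higher, 2.07% lower). In NK cells, Ifng was the only 1 of 7 members called (4.96% of all genes there, 2.75% higher and 2.22% lower). In CD4 T cells 4 of 8 were called, 1 higher and 3 lower (8.94% of all genes, 4.68% higher and 4.26% lower). No member was called by edgeR in Treg, DETC or the 5 myeloid gates tested. Of all genes, 4.33% were called in Treg (2.59% higher, 1.74% lower), 0% in DETC, 0.286% in C1q macrophages (0.177% higher, 0.109% lower), 0.361% in monocyte-like cells (0.309% higher, 0.0516% lower), 9.89% in cDC2 (4.18% higher, 5.71% lower), 0.107% in neutrophils, all higher, and 4.44% in mast cells (2.62% higher, 1.82% lower). At an unadjusted p under 0.05 in edgeR's test, 23 of the 66 member tests passed. No share of all genes at that threshold is given here, so this count is not read as a result. The NK call was lost without control skin 2 (0.97, adjusted p = 0.0696), with doubled marker thresholds (1.197, adjusted p = 0.0642) and with cells holding a UMI of Mki67 or Top2a left out (0.84, adjusted p = 0.239), in the same edgeR test. The CD4 T call was lost without either control skin (2.30 and 1.37, adjusted p = 0.119 and 0.113 in edgeR's test).

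The share of cells with an Ifng UMI moved less than the level did. With every cell thinned to 3000 UMIs, 25.0% and 25.9% of control NK cells and 31.6% and 29.8% of tumor NK cells held an Ifng UMI. In CD4 T cells the shares were 17.1% and 12.8% in control skin and 19.8% and 32.6% in tumors, and in CD8 T cells 32.3% and 11.6% in control skin and 24.0% and 27.5% in tumors. The order of the NK groups turned when cells were thinned to 1000 UMIs (means of 16.9% in control skin and 14.9% in tumors) or not thinned (49.6% and 46.3%). C1q macrophages, which should lack Ifng, were positive in 0% to 1.75% of thinned cells, at median depths of 15018 to 19713 UMIs against 7714 to 13901 in NK cells. A few cells carried most of the molecules. The richest 10% of the cells of the NK gate held 54.8% and 36.1% of its Ifng UMIs in control skin and 74.5% and 69.3% in tumors, and the highest single NK cell held 16 and 5 UMIs in control skin and 44 and 43 in tumors. The median over NK cells with an Ifng UMI was 2 in each of the 4 libraries. In CD4 T cells the highest cell held 9 and 4 UMIs in control skin and 24 and 56 in tumors. These per-cell values depend on the number of cells, which was 40 and 29 NK cells in control skin and 134 and 64 in tumors.

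Regulatory T cells, gated by Foxp3, held 1 and 0 Ifng UMIs in control skin and 9 and 14 in tumors, 0.085 and 0.273 UMIs per 10000 in the latter, and were too low for the test. DETC, a large lymphoid gate of control skin with 490 and 581 cells, held 13 and 47 Ifng UMIs there, 0.023 and 0.070 per 10000, in 0.628% and 1.22% of thinned cells. The 16 control DETC with an Ifng UMI held Tbx21 in 75.0% of cells, against 3.51% of the other 1055. In the DETC gate of skin tumor 1, where NK genes were found, Ifng stood at 1.13 UMIs per 10000, and in the 14 cells of skin tumor 2 at 0. The fitted DETC difference of 3.34 (SE 1.33, adjusted p = 0.551 by edgeR's test) rests on skin tumor 1, since without it the tumor value was 0. Dermal gamma delta T cells held 54 Ifng UMIs in control skin 1 and 0 in control skin 2, and ILC2 held 3 and 12. Of the 8 myeloid gates, cDC1, mature DC and mast cells held no Ifng UMI in any library, and the most in any was 15, in the 1937 C1q macrophages of skin tumor 1, 0.0037 UMIs per 10000. In order of the mean level, CD8 T and NK led in control skin and overlapped each other. CD4 T came next, below both NK values, but its value in control skin 1 (0.787) lay above CD8 T of control skin 2 (0.755). The dermal gamma delta T cells, ILC2, DETC and Treg below it each overlapped the next. In tumors NK led without overlap, CD4 T and CD8 T overlapped each other, and DETC and Treg, which also overlapped, followed.

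Counted by where the molecules lay, NK, CD8 T and CD4 T together held 42.5% and 29.2% of the 1037 and 315 Ifng UMIs of the control skins and 66.4% and 51.9% of the 2298 and 1026 of the tumors. They made up 8.38% and 3.79% of the immune cells of the control skins and 12.0% and 10.6% of those of the tumors. CD8 T cells held the largest share of any gate in skin tumor 1, 41.4%, but 8.19% in skin tumor 2, where CD4 T cells held 22.4% and NK cells 21.2%. The 8 myeloid gates together held 0.386% and 0.635% in control skin and 0.740% and 1.56% in tumors, although they were 57.4% and 50.1% of the tumor cells. The 7 lymphoid gates together held 49.4% and 47.9% in control skin and 67.4% and 53.2% in tumors. Cells ungated or of more than 1 lineage held 50.2% and 51.4% in control skin and 31.9% and 45.2% in tumors. In control skin 2 the DETC gate held 47 of the 315 Ifng UMIs, the most of any gate, and CD8 T held 38. Of Ifng UMIs in ungated cells, those with at least 2 CD3 UMIs held 41.3% and 65.0% in control skin and 84.6% and 69.6% in tumors, and of those in cells of more than 1 lineage the same class held 84.9% or more in every library. These shares were not tested between the groups.

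**Figure D2:**
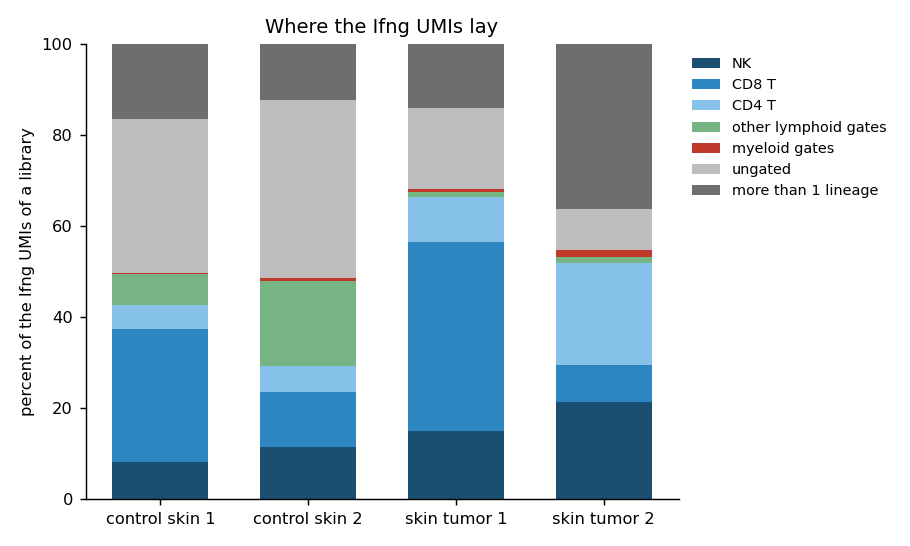
Percent of the Ifng UMIs of a library (y axis) that lay in each gate or class of cells (stacked colours), for the 4 libraries (x axis). NK, CD8 T and CD4 T together hold 66.4% and 51.9% in tumors and 42.5% and 29.2% in control skin, and the myeloid gates never exceed 1.56%.

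The IL-12 receptor chain that limits the response, Il12rb2, was not a mark of the Ifng makers alone. DETC had the highest level of all gates in control skin, at 14.4 and 15.9 UMIs per 10000, with 83.9% and 89.9% of thinned cells positive. Dermal gamma delta T cells followed with 6.69 and 5.83, NK cells with 4.10 and 3.72, CD8 T with 3.44 and 3.18, and CD4 T with 1.92 and 1.75, and none of these neighbours overlapped. Of all Il12rb2 UMIs, DETC held 45.8% and 50.2% in control skin and 2.63% and 9.79% in tumors, where the gate held only 12 and 14 cells, and NK cells held 1.18% and 0.644% in control skin and 21.4% and 13.5% in tumors. Per cell, NK cells held 4.002 and 4.895 UMIs per 10000 in tumors.

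No Il12rb2 test was called. The difference was 0.16 (SE 0.21, adjusted p = 0.772) in NK cells and 0.01 (SE 0.34, adjusted p = 0.989) in CD4 T cells by edgeR's test. In CD8 T cells the tumor values were 0.974 and 2.69 UMIs per 10000, both under the control values, with a difference of -1.07 (SE 0.40, adjusted p = 0.135) that passed without skin tumor 2 (-1.92). DETC of skin tumor 2, the 14 cells with the DETC receptor segment, held 18.0 UMIs per 10000, and the 12 cells of skin tumor 1 held 4.69. Among myeloid gates Il12rb2 stayed at 0.623 or below.

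Il12rb1, the chain shared by the IL-12 and IL-23 receptors, was sparse everywhere. Its highest level was in Treg, 0.139 and 0.132 UMIs per 10000 in control skin and 0.283 and 0.371 in tumors, on 3 to 30 UMIs, with a difference of 1.23 (SE 0.56, adjusted p = 0.267 by edgeR's test). NK cells held 1 and 3 Il12rb1 UMIs in control skin and 13 and 8 in tumors. Both IL-12 receptor chains were found in at most 3.70% of thinned NK cells in any library. At these counts a chain that is present in a cell is mostly not captured, so the share does not count responsive cells. C1q macrophages held 0 and 1 Il12rb1 UMIs in control skin and 343 and 56 in tumors, 0.085 and 0.043 per 10000, a difference of 4.54 (SE 0.95) that was not called (adjusted p = 0.134 by edgeR's test).

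Il12b, which encodes the p40 chain of IL-12 and of IL-23, was read as the ligand of these receptors after its values had been seen. Mature DC, gated by Ccr7 with Fscn1 and Cacnb3, held it at 4.27 and 5.99 UMIs per 10000 in tumors, on 307 and 173 UMIs in 44 and 13 cells, of which 40.9% and 61.5% were positive. In control skin the gate held 44 and 0 UMIs in 8 and 5 cells, too few for a test. C1q macrophages of the tumors held 168 and 27 UMIs, 0.042 and 0.021 per 10000. Il12a, the p35 chain of IL-12, did not exceed 6 UMIs in any gate of any library. Il23a, the partner of p40 in IL-23, held 58 and 6 UMIs in C1q macrophages of the tumors. It held 14 and 5 in Langerhans cells of control skin and 0 in mature DC of every library.

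Among the gates of control skin, Tbx21 was highest in the same 3 as Ifng. Cells ungated or of more than 1 lineage held 63.8% and 56.8% of the Tbx21 UMIs there. In control skin NK cells held 4.45 and 5.77 UMIs per 10000, CD4 T cells 3.46 and 2.49, and CD8 T cells 3.32 and 2.29, and the other gates reached 0.480. In tumors NK cells held 4.27 and 3.16, CD8 T cells 1.53 and 2.82, and CD4 T cells 1.78 and 2.31. In NK and CD4 T cells both tumor values lay under both control values, with differences of -0.46 (SE 0.23, adjusted p = 0.351) and -0.65 (SE 0.27, adjusted p = 0.176) in edgeR's test, neither of them called. The gates in which Ifng rose thus showed no called rise of Tbx21. Within CD4 T cells of tumors, 68.9% of the 90 cells with an Ifng UMI held Tbx21 against 39.4% of the other 142, while in control NK cells the shares were 94.1% and 94.3%. Cells with an Ifng UMI can be deeper than the others, as in tumor CD8 T cells (medians of 14531 and 10150 UMIs), so such shares are a description.

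In Treg, Tbx21 stood at 0.209 and 0.044 UMIs per 10000 in control skin and 0.435 and 0.975 in tumors, without overlap and with a difference of 2.32 (SE 0.67, adjusted p = 0.0862 by edgeR's test), not called. In cDC2, dendritic cells gated by Cd209a, it stood at 0.011 and 0.192 in control skin and 0.483 and 0.522 in tumors (1.91, SE 0.70, adjusted p = 0.131 by edgeR's test). The cDC1 gate of tumors held 0.069 and 1.85, the latter on 75 UMIs in 3 of 13 cells, with too few control cells to compare. DETC held 0.171 and 0.252 in control skin, and in tumors 4.37 in the 12 cells of skin tumor 1 and 0 in skin tumor 2.

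**Figure D3:**
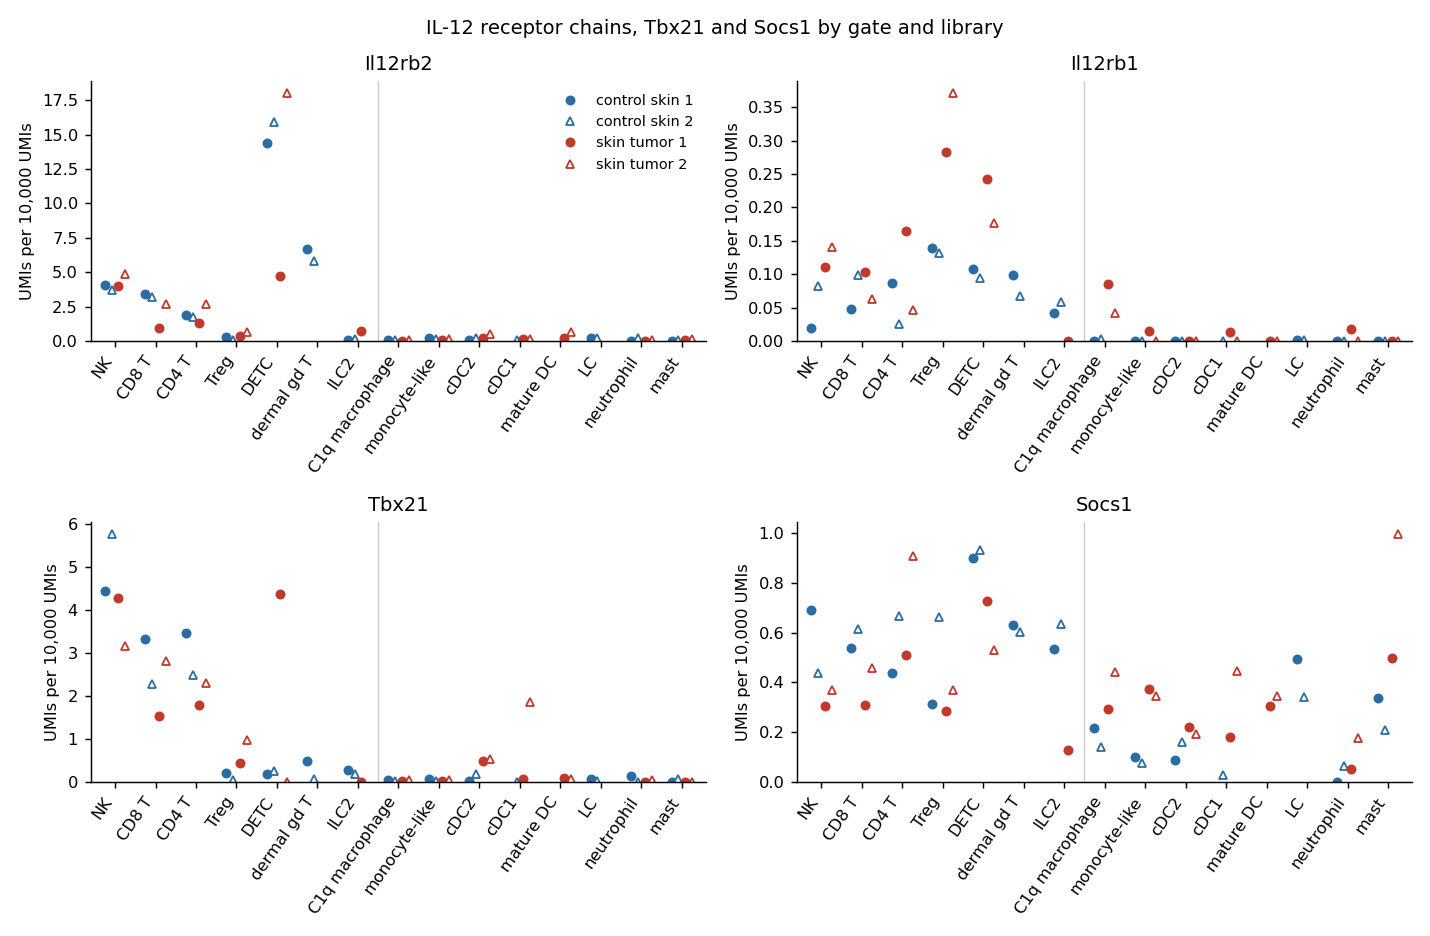
Il12rb2, Il12rb1, Tbx21 and Socs1 in UMIs per 10000 UMIs (y axes, each with its own scale) by gate (x axes), 1 point for each library with at least 10 cells, blue for control skin and red for skin tumor. Il12rb2 peaks in DETC, at 14.4 and 15.9 in control skin, and Tbx21 of control skin peaks in NK, CD8 T and CD4 T. In tumors Tbx21 also stands at 4.37 in the DETC gate of skin tumor 1 and 1.85 in cDC1 of skin tumor 2. Socs1 in monocyte-like cells is higher in both tumors (0.373 and 0.347) than in both control skins (0.099 and 0.074).

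The Ifng receptor chains differed in their order over the gates. Ifngr1, the ligand-binding chain, was high in NK, CD8 T, CD4 T and Treg, but not shown to be so in every lymphoid gate. Among unthinned control cells without an Ifng UMI, 79.1% of 1055 DETC held it, against 97.1% of 35 NK cells. Median depths were 10355 and 13067 UMIs. NK cells held 9.56 and 8.04 UMIs per 10000 in control skin and 9.12 and 10.9 in tumors, Treg 7.58 and 7.99 and then 9.61 and 10.6, and CD8 T 7.52 and 6.36 and then 5.94 and 7.43. C1q macrophages held 1.35 in both control skins and 1.57 and 1.88 in tumors, and Langerhans cells had the lowest control level, 0.356 and 0.479. Ifngr1 was not called in any of 9 gates. The nearest were CD4 T, at 9.94 and 8.92 in control skin and 5.71 and 6.03 in tumors (-0.78, SE 0.24, adjusted p = 0.0834), and cDC2, at 1.05 and 1.37 in control skin and 2.12 and 2.42 in tumors (0.68, SE 0.22, adjusted p = 0.0974), both by edgeR's test.

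Ifngr2, the chain that brings JAK2, had its lowest mean levels in NK and CD8 T cells in both groups. NK cells held 0 UMIs in control skin 1, control skin 2 and skin tumor 2, and 14 in skin tumor 1, in 5 of 134 cells. A count of 0 allows up to 0.059 and 0.082 UMIs per 10000 in the control skins. CD8 T cells held 14, 2, 7 and 0 UMIs in control skin 1, control skin 2, skin tumor 1 and skin tumor 2, 0.095 or less per 10000. Several myeloid gates, ILC2 and skin gamma delta T cells of control skin held more of it. C1q macrophages stood at 1.11 and 1.43 UMIs per 10000 in control skin and 1.48 and 1.39 in tumors, monocyte-like cells at 1.58 and 1.34 and then 1.52 and 1.44, cDC2 at 1.00 and 1.06 and then 1.14 and 1.04, DETC of control skin at 1.65 and 1.61, dermal gamma delta T cells of control skin at 1.71 and 2.02, and ILC2 of control skin at 0.903 and 0.833. Neutrophils varied from 0.377, on 3 UMIs in control skin 1, to 1.201 in skin tumor 2, and mast cells from 0.214 in skin tumor 1 to 1.52 in control skin 1, so that both reached below control CD4 T cells. None of the 4 myeloid gates tested for these chains had a called difference in either, and the Ifngr2 difference was -0.05 (SE 0.20) in C1q macrophages and -0.04 (SE 0.22) in monocyte-like cells.

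In CD4 T cells Ifngr2 fell. It stood at 0.394 and 0.643 UMIs per 10000 in control skin, on 27 and 25 UMIs, and at 0.121 and 0.115 in tumors, on 14 and 10 UMIs. The groups did not overlap, and the fall was 2.16 on the log2 scale (a difference of -2.16, SE 0.39, adjusted p = 0.0155 by edgeR's test). Without control skin 1 the adjusted p was 0.119 and without control skin 2 it was 0.100 (-2.44 and -1.91), and with cells holding a UMI of Mki67 or Top2a left out it was 0.0949. Both IFNGR chains were found in 0% of thinned NK cells in all 4 libraries, in 5.71% and 10.3% of control and 3.05% and 0% of tumor CD4 T cells, in 12.3% and 10.4% of control and 13.2% and 13.5% of tumor C1q macrophages, and in 22.9% and 24.3% of control dermal gamma delta T cells.

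**Figure D4:**
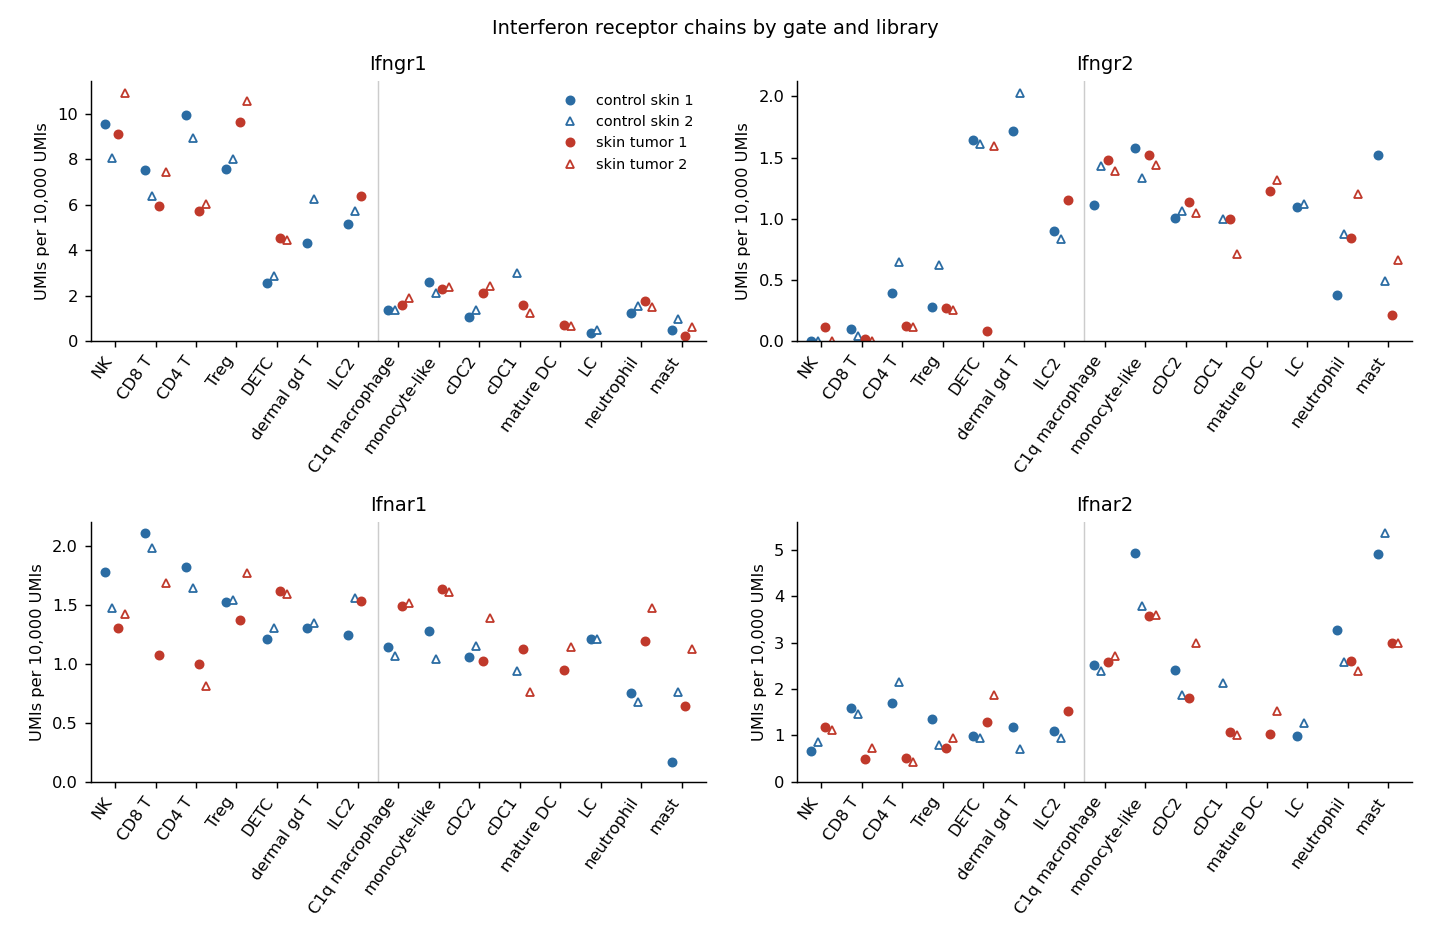
Ifngr1, Ifngr2, Ifnar1 and Ifnar2 in UMIs per 10000 UMIs (y axes, each with its own scale) by gate (x axes), 1 point for each library with at least 10 cells, blue for control skin and red for skin tumor, lymphoid gates left of the line and myeloid gates right. Ifngr1 is high in NK, CD8 T, CD4 T and Treg, and Ifngr2 is near 0 in NK and CD8 T. In CD4 T all chains but Ifngr1 are called lower in tumors, Ifnar2 from 1.71 and 2.16 to 0.510 and 0.426.

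The type I receptor chains were found in every gate. Ifnar1 ranged from 0.169 to 2.11 UMIs per 10000 over gates and libraries with at least 10 cells. Ifnar2 was highest in mast cells, 4.91 and 5.36 in control skin and 2.997 and 2.988 in tumors, and in monocyte-like cells, 4.93 and 3.79 and then 3.56 and 3.59, and among control values the lowest mean was in NK cells, 0.673 and 0.848. In NK cells the tumor values were higher, 1.18 and 1.11, with a difference of 0.59 (SE 0.25) that was not called (adjusted p = 0.241 by edgeR's test).

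Both chains fell in CD4 T cells and Ifnar2 fell in CD8 T cells, the 1 of 7 members called there (9.07% of all genes were called there, 4.02% higher and 5.05% lower). Ifnar2 in CD4 T cells stood at 1.71 and 2.16 UMIs per 10000 in control skin and 0.510 and 0.426 in tumors, a difference of -2.11 (SE 0.23, adjusted p = 0.0025 by edgeR's test). In CD8 T cells it stood at 1.59 and 1.45 in control skin and 0.480 and 0.730 in tumors, a difference of -1.56 (SE 0.27, adjusted p = 0.00918 by edgeR's test). Ifnar1 in CD4 T cells stood at 1.82 and 1.65 in control skin and 1.00 and 0.817 in tumors, -1.03 (SE 0.23, adjusted p = 0.0299 by edgeR's test). In all 3 pairs both tumors lay below both control skins, which adds no support, since the pairs were picked by their calls. Without control skin 1 the edgeR adjusted p was 0.0975 for Ifnar2 in CD4 T, 0.0801 for Ifnar2 in CD8 T and 0.238 for Ifnar1 in CD4 T. The Ifnar1 call was lost in 6 of 12 settings, also without control skin 2 (0.0951), without skin tumor 2 (0.0691), with doubled marker thresholds (0.0673), with cells holding a UMI of Mki67 or Top2a left out (0.0944), and with DESeq2 (adjusted p = 0.105). In CD8 T cells Ifnar1 stood at 2.11 and 1.99 in control skin and 1.08 and 1.69 in tumors, -0.75 (SE 0.26, adjusted p = 0.105 by edgeR's test). Treg, the third alpha beta T cell gate, had -0.40 (SE 0.33) for Ifnar2 and 0.03 (SE 0.26) for Ifnar1, neither called. The share of thinned cells with both chains was 15.7% and 23.1% in control and 2.29% and 2.11% in tumor CD4 T cells, and 15.8% and 10.99% in control and 16.9% and 18.0% in tumor C1q macrophages.

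The CD4 T gate had more of the called members than any other gate. The median difference of its 8 members was -0.72, and that of all 7440 genes tested there was 0.01. The CD8 T gate had a like median, -0.75 over 7 members, against 0.07 for all 7863 genes. Among CD4 T cells of tumors other values moved with the group. The dissociation list of immediate early and heat shock genes summed to 26.5 and 18.6 UMIs per 10000 in control skin and 65.0 and 62.5 in tumors, with 4 of its 9 genes called higher and 1 lower. The macrophage genes C1qa, C1qb, C1qc and Lyz2 summed to 0.335 and 0.720 in control skin and 1.15 and 1.62 in tumors. CD3 genes summed to 9.30 and 10.1 and then 16.7 and 17.5. In NK cells the dissociation list stood at 41.3 and 24.4 and then 78.8 and 69.0, the macrophage genes at 0.218 and 0.356 and then 1.05 and 0.948, and the NK genes of the gate at 8.94 and 11.3 and then 18.6 and 20.8. The part of these values in the differences of Ifng and of the receptors was not tested. Over all gates the dissociation list had 28 of 88 tests called higher and 6 lower, where 2.02% of tests of all genes were higher and 2.07% lower.

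The difference of Socs1 between tumor and control was not the same in lymphoid and myeloid cells. In monocyte-like cells, gated by Ly6c2 and Plac8 with Lyz2 and low C1q, it stood at 0.099 and 0.074 UMIs per 10000 in control skin and 0.373 and 0.347 in tumors, a difference of 2.07 (SE 0.40) that was not called alone (adjusted p = 0.0954 by edgeR's test). In C1q macrophages it stood at 0.216 and 0.141 and then 0.291 and 0.441 (0.90, SE 0.35), and in cDC2 at 0.087 and 0.159 and then 0.219 and 0.191 (0.48, SE 0.40). In NK cells it stood at 0.692 and 0.438 in control skin and 0.306 and 0.368 in tumors (-0.81, SE 0.35), in CD8 T cells at 0.538 and 0.616 and then 0.307 and 0.459 (-0.81, SE 0.32), and in DETC at 0.899 and 0.933, the highest control level, and then 0.728 and 0.532. CD4 T cells, at 0.437 and 0.668 and then 0.510 and 0.909 (0.30, SE 0.36), were the lymphoid gate with a positive difference. None of the 8 gates was called for Socs1.

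The test of the difference between the lineages was 1 fit over the 10 gates with library as a term. It could estimate 7 of the 9 genes and called 2, where 2.28% of 10288 genes were called. Those 10288 include 2031 genes with an SE over 100, so the 2 shares are not on a like basis. For Socs1 the mean tumor effect was -0.53 in lymphoid and 1.15 in myeloid gates when fitted gate by gate. The joint fit gave a difference of -1.87 (SE 0.32, adjusted p = 0.000999 by edgeR's test). The myeloid mean covers C1q macrophages, monocyte-like cells and cDC2 only. The joint fit also held mast cells and neutrophils, the latter with 0 and 2 Socs1 UMIs in control skin. For Ifnar1 the means were -0.39 and 0.47 and the joint difference was -0.92 (SE 0.19, adjusted p = 0.00549 by edgeR's test). Without control skin 1 the Ifnar1 difference was -0.72 and was no longer called (adjusted p = 0.234), and without control skin 2 it was -1.43. The Socs1 difference was called without each library in turn, and was -3.14 without control skin 2. Ifnar2, whose falls lay in 2 lymphoid gates, had a difference of -0.44 (SE 0.19, adjusted p = 0.237 by edgeR's test). The joint fit did not follow the gate means for every gene. For Ifngr2 the means were -1.38 and 0.06 and the joint difference 0.06 (SE 0.25). For Tbx21 they were 0.76 and 0.82 and the joint difference 1.80 (SE 2.28). The lymphoid side includes the DETC gate, which in skin tumor 1 is read as its marker rule only. The joint fit takes the gate sums of a library as separate observations once the library term is set. Its p-values thus rest on more sums than libraries and can be too small.

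**Figure D5:**
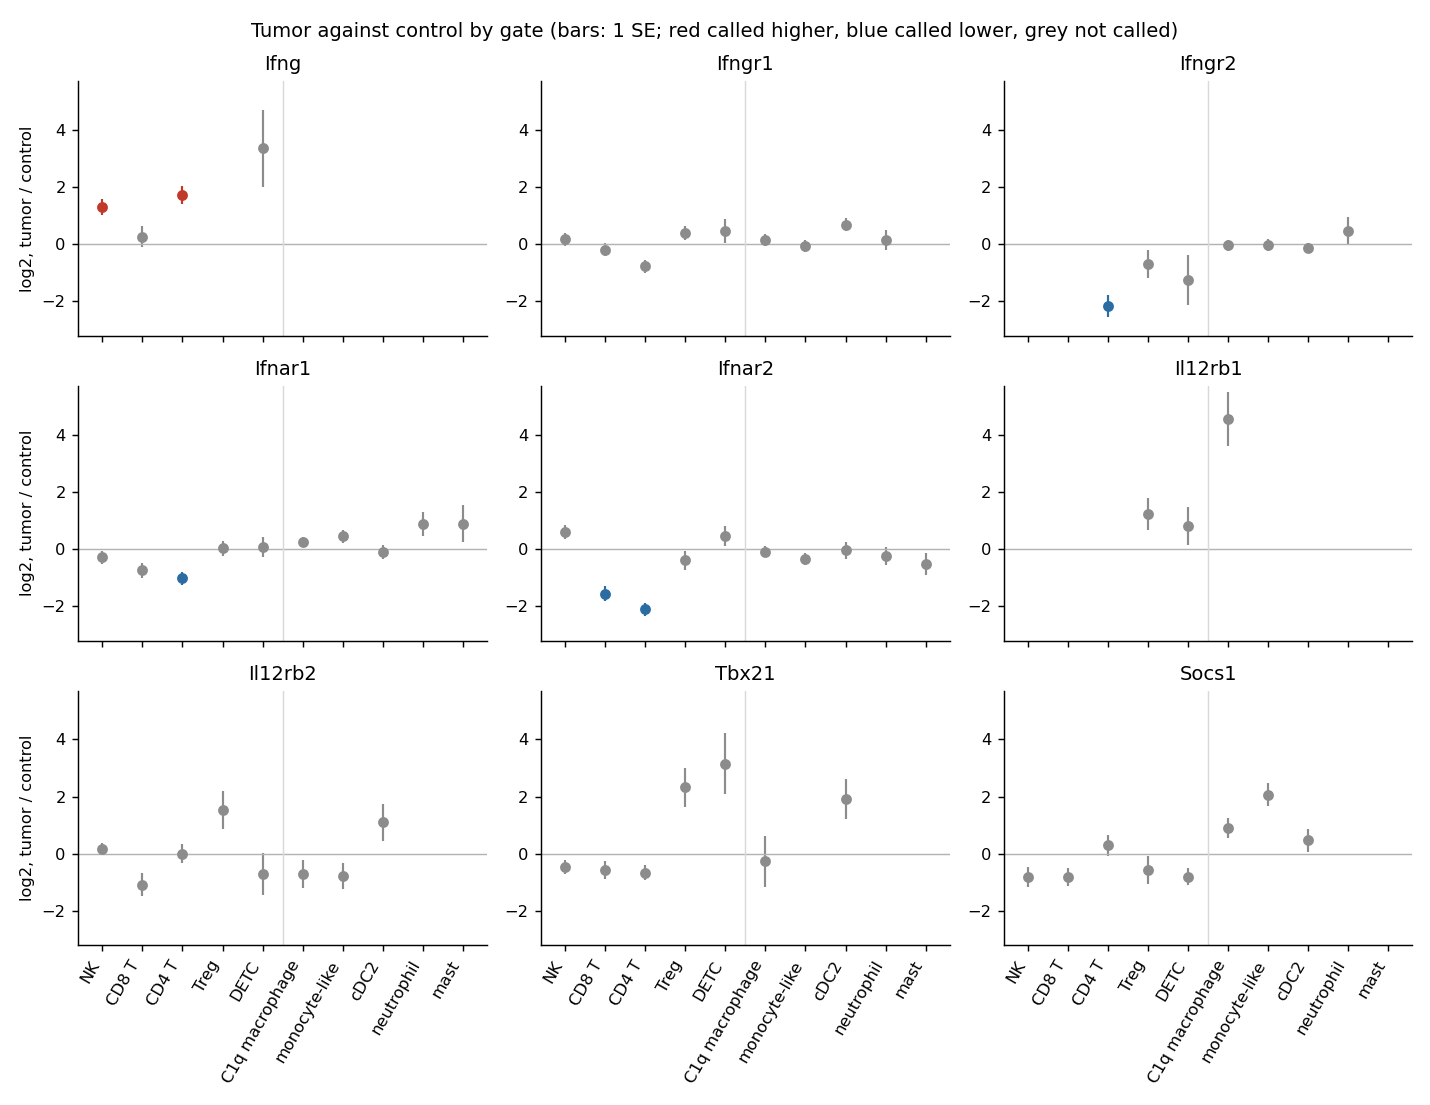
Tumor against control on the log2 scale (y axes) for each of the 9 genes in the gates where it was tested (x axes), with bars of 1 SE. Red points were called higher (Ifng in NK and CD4 T), blue points lower (Ifngr2, Ifnar1 and Ifnar2 in CD4 T and Ifnar2 in CD8 T), and grey points were not called, with Socs1 negative in most lymphoid gates and positive in the 3 myeloid gates that could be tested.

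Genes downstream of the receptors were read from lists by role. Of 12 textbook targets of interferon gamma, 11 could be tested, and 22 of 79 tests in 10 gates were called higher and 0 lower, with a median difference of 1.22 and 10 genes higher in at least 1 gate. Most of these calls lay in cDC2, monocyte-like cells and C1q macrophages. In cDC2, 6 of 10 targets were higher (4.18% of all genes were higher there). Monocyte-like cells had 5 of 10 (0.309%) and C1q macrophages 4 of 11 (0.177%). CD8 T had 3 of 8 (4.02% of all genes were higher there), NK 2 of 6 (2.75%), CD4 T 1 of 8 (4.68%) and Treg 1 of 8 (2.59%). Neutrophils, also tested for both IFNGR chains, had 0 of 7, in a gate where 0.107% of all genes were called. Mast cells had 0 of 2 (2.62% of all genes were higher there). DETC had 0 of 9, in a gate where no gene was called. Whether target calls follow the receptor chains was not tested. Cxcl9, a chemokine that attracts T cells, had 0 UMIs in monocyte-like cells of both control skins and 2339 and 608 in tumors, 5.67 and 4.30 UMIs per 10000, at least 269-fold higher than 3 counts over the control group would be. Iigp1, an immunity-related GTPase, had 0 UMIs in the same control cells and 168 and 38 in tumors, at least 18.8-fold higher. Both were called (adjusted p = 0.00131 and 0.0341 by edgeR's test). Summed over the 12 targets, monocyte-like cells stood at 3.16 and 5.50 UMIs per 10000 in control skin and 25.2 and 19.4 in tumors. NK cells, with no Ifngr2 UMI in 3 libraries, stood at 10.6 and 11.5 and then 20.2 and 20.3. The called NK targets were Cxcl10 and Irf8, and whether they answered to an interferon was not tested.

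The feedback list, without Socs1, had 4 of 54 tests higher and 0 lower. For this list and those that follow, 2.02% of the tests of all genes in the 10 gates were higher and 2.07% lower. All 4 feedback calls were of Usp18, which binds IFNAR2 and damps type I signalling, in NK, CD8 T, CD4 T and cDC2. Of the regulators of Ifng, 2 of 27 tests were higher and 0 lower, both of the T-box gene Eomes, in CD8 T cells (2.77) and CD4 T cells. In CD4 T cells Eomes had 0 UMIs in both control skins and 31 and 36 in tumors, at least 11.9-fold higher (adjusted p = 0.0102 by edgeR's test), in 8.82% and 6.25% of cells. Eomes is also a marker of the NK gate. In the CD4 T gate the NK genes, Eomes among them, summed to 0.087 and 0 UMIs per 10000 in control skin. In tumors they summed to 0.398 and 0.610, of which Eomes itself was 0.268 and 0.414. The sum is therefore not a separate measure of NK content. Of the inducers of Ifng, 2 of 22 tests were higher and 1 lower. Il21, a T cell cytokine, had 0 UMIs in control CD4 T cells and 35 and 13 in tumors, at least 8.49-fold higher (adjusted p = 0.0228 by edgeR's test), Ebi3 rose in CD4 T cells and Il2 fell in CD8 T cells by 3.28. The receptors of inducers had 2 of 52 tests higher, Il21r in NK cells and cDC2, and 2 lower, Il18r1 and Il2rb in cDC2, where 4.18% of all genes were higher and 5.71% lower. The cDC2 gate also held UMIs of lymphocyte genes. Nkg7 had 1 and 20 in control skin and 4 and 3 in tumors, and Cd3e had 7 and 2 and then 2 and 0. The part of lymphocyte RNA in the Il2rb and Il18r1 differences was not tested. Of 20 type I and III interferon genes 1 could be tested, and Ifnb1 rose in cDC2, 1 of 2 tests.

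Over 52 sums of a gate in a library, the genes with the pattern most like Ifng, by Pearson correlation of log2 CPM among 9948 genes, were Samd3 (0.909), Fasl (0.902), Apol7e (0.892), Gm33104 (0.882) and Ms4a4b (0.878). Fasl encodes Fas ligand, a death ligand of T and NK cells. Those most like Socs1 were Nkiras1 (0.792), Slc38a10 (0.791), Arhgap12 (0.789), Bod1l (0.784) and Phf6 (0.784). Sums of 1 gate share markers and those of 1 library share its depth, so these are descriptions with no p.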

How the data were processed

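The deposited files held UMI counts per gene and cell barcode, made by the authors with Cell Ranger (version 7.1.0 per the labels, 7.0.1 in the file headers) on mm10, as filtered barcodes without normalization. Barcodes were dropped under 1000 UMIs, under 100 genes, above 15% mitochondrial UMIs, or where the log10 gene number divided by the log10 UMI number was under 0.8. Cells were gated by marker UMIs, with thresholds set after marker genes, but not the tests of the members, had been viewed. Levels are UMIs per 10000 UMIs of a gate in a library, with exact Poisson 95% intervals and a floor of 3 counts. For shares of cells, 3000 UMIs were drawn from each cell, and shallower cells were left out.

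UMI counts were summed per gate and library and tested with edgeR 4.0.16 (TMM scaling, filterByExpr, quasi-likelihood test, R 4.3.3), with Benjamini-Hochberg adjustment over all genes of a gate and a threshold of 0.05. SE is the log2 difference divided by the square root of the F statistic. The labels do not say whether samples of a group came from separate mice, so p-values of the tests by gate measure only the spread between these samples. Those of the lymphoid minus myeloid fit also draw on several gates of the same library. In simulated counts, genes changed by 2 on the log2 scale were called in 84% of cases in NK, 81% in CD8 T, 79% in CD4 T, 71% in Treg, 64% in C1q macrophages, 82% in monocyte-like cells, 77% in cDC2, 41% in neutrophils, 48% in mast cells, 0% in DETC and 45% in the lymphoid minus myeloid fit. Genes changed by 1 were called in 0% to 38% by gate, so a member not called may still differ. Unchanged genes gave 11 false calls in NK, 7 in CD8 T, 11 in CD4 T, 6 in Treg and 0 in DETC. They gave 12 in C1q macrophages, 21 in monocyte-like cells, 9 in cDC2, 3 in neutrophils and 3 in mast cells. In the lymphoid minus myeloid fit they gave 6, so a called gene may also be a false call. Doublets were kept, and an alternative removed 453 cells. Other alternatives were RLE scaling, DESeq2 1.42.0, no low-count filter, a replicate block, doubled marker thresholds, cells with a UMI of Mki67 or Top2a left out, at most 10% mitochondrial UMIs and each library left out. The members and gene lists were chosen with earlier results of these data known. Beyond the members, the 4 list genes with the largest called differences were named by rule, and other called list genes are named to account for counts. Langerhans cells and 4 other gates were not tested because a library held under 10 cells. The list of kinases and signal transducers and part of the genotype of the injected line are not reported here.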

Additional observations from a re-analysis of the deposited data

Results flagged for a closer look

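The tumor effect differed between lymphoid and myeloid gates for Socs1, by -1.87, and for Ifnar1, by -0.92, in edgeR's joint quasi-likelihood fit. Both differences were tested in that fit, which takes the gate sums of a library as separate observations. The part of the dissociation list, which summed higher in tumors in several gates of both lineages, was not tested.

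Ifng was also found in cells set aside for markers of more than 1 lineage, which no comparison used. It stood there at 1.03 UMIs per 10000 in skin tumor 1 and 0.486 in skin tumor 2, against 0.142 and 0.027 in control skins 1 and 2. Cells with at least 2 CD3 UMIs held 84.9% and 86.3% of these UMIs in tumors. Median depths of this class were 25266 to 28463 UMIs. The doublet alternative removed 83 of its 116 cells in skin tumor 1 and 30 of 259 in skin tumor 2. In control skins 1 and 2 it removed 49 of 402 and 63 of 480. The part of the Ifng UMIs that came from doublets was not tested.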

How the results depend on the processing

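The member calls, 2 higher and 4 lower, became 9 higher without the low-count filter and 1 higher with doubled marker thresholds, and 2 lower with cells holding a UMI of Mki67 or Top2a left out. With doubled thresholds, or with those cells left out, 9 gates could be fitted instead of 10. The number of tests by setting is not given here. These counts of calls and those below are therefore not read as a result about the members. Leaving out each library gave 1 to 6 higher and 0 to 9 lower, with the lone sample of an arm assumed to vary like the others. The 2883 calls over all genes became 7069 without the filter and 1824 without those cells, and 631 to 7391 when each library was left out. The lineage comparison called 1 to 2 members when each library was left out. With the replicate block, 1 member test was higher and 4 lower, and Ifng in NK cells was lost (1.32, adjusted p = 0.0978 by edgeR's test), so that this call was lost in 4 of 12 settings. Replicate deviations correlated at -0.08 to 0.05, so the samples share only a number and this pairing carries no weight. Percent of cells with an Ifng UMI depends on depth. Control and tumor means at 3000 UMIs were 25.5 and 30.7 in NK, 22.0 and 25.7 in CD8 T, and 14.98 and 26.2 in CD4 T. At 1000 UMIs they were 16.9 and 14.9 in NK, 15.7 in tumor CD8 T, and 5.63 and 12.7 in CD4 T. Unthinned they were 49.6 and 46.3, 41.3 and 46.9, and 27.2 and 39.5, so the order of tumor and control NK cells turned under both. No difference of a called test changed sign, and 55 of 72 settings of the called tests kept the call.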
